A study of Canis lupus familiaris with 5 samples.

Results

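The small heat shock proteins are a family of chaperones that share the alpha-crystallin domain, and they were followed here in canine heart muscle with and without congestive heart failure. Members were all probe sets whose single gene symbol in the platform annotation was HSPB followed by a number, or CRYAB, the symbol of alphaB-crystallin. This gave 14 probe sets for 7 genes (HSPB1, HSPB2, HSPB3, HSPB6, HSPB7, HSPB8 and CRYAB), out of 4601 probe sets and 2416 genes named from a single symbol. The samples were 5 oligonucleotide arrays of total RNA from canine myocardium, 2 titled Con (control 1a and 2a) and 3 titled Fail (failing 1a, 1b and 2a). Each of 4 arrays held a pool of RNA from 3 dogs, and for control 1a no pool was described. Breed, age, treatment, the cause and duration of heart failure and the region of the heart are not given in the sources used here. Failing 1a and 1b may be 2 pools or a repeat of 1 pool, which the labels leave unsaid, so the p-values below describe array-to-array spread that may be technical.

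Small heat shock proteins bind unfolding proteins without using ATP and hold them in a state from which the HSP70 system can refold them or hand them to degradation. Heart and skeletal muscle are rich in them, and several members sit on the contractile lattice, the desmin network and the actin cytoskeleton. HSPB1, CRYAB and HSPB6 are widespread members that form mixed oligomers and are regulated by phosphorylation, HSPB2 and HSPB3 are muscle members that form a complex with each other, HSPB7 is a cardiovascular member that binds filamins and thin filaments, and HSPB8 works with the co-chaperone BAG3 in the removal of damaged filament proteins. HSPB2 and CRYAB lie next to each other in the dog genome, and the RefSeq annotation of the UU_Cfam_GSD_1.0 assembly lists no gene between them.

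Values were linear intensities, 1 per probe set and array, and once 2% of values were trimmed at each end the mean of every array was 800. Between 34.7% and 39.9% of all values of an array lay below 0. For tests, values under 20 were set to 20 (the floor), log2 was taken, and a probe set was tested when its mean log2 intensity over the 5 arrays reached the median of all probe sets (7.13, an intensity of 140.1). Failing 2a stood apart from the other arrays, with correlations across genes between 0.56 and 0.58, against 0.71 to 0.82 among the others. Of 16 heart muscle markers on the array 14 were tested. Of these, 6 had a log2 fold change above 0 and 8 below, against 863 and 586 of all 1449 genes tested. Their summed intensities were 182930 to 201300 on the control, against 151890 to 176570 on the failing arrays. MYH7, the beta myosin heavy chain of heart muscle, was not tested: 1 of its probe sets lay below 0 on every array, and the other had −673.7 and −454.5 on the control, against 404.7, 585.4 and −164.6 on the failing arrays. GAPDH, which has control probe sets at both ends of its transcript as an index of RNA or labelling quality, had a 3′ to 5′ ratio of 2.24 ± 0.13 (SD, n = 2) on the control, against 1.39 ± 0.06 (SD, n = 3) on the failing arrays, with no overlap (two-sided exact permutation p = 0.2, the smallest p that 2 against 3 arrays can give). For actin the same ratio was 0.099 ± 0.013 (SD, n = 2) on the control, against 0.16 ± 0.065 (SD, n = 3) on the failing arrays. The groups overlapped for actin, with the higher mean on the failing arrays (two-sided exact permutation p = 0.6). Only the GAPDH ratio separated the groups, and the part of either ratio in any result was not tested. These control probe sets are named for human transcripts and the RNA was canine, so neither ratio need measure RNA quality.

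At the brightest probe set of each gene, HSPB2 and HSPB7 were brighter on every failing array than on both control arrays, by 1.55-fold and 2.05-fold on average. The dim second probe set of HSPB2 lay below 0 on every failing array, lower than both controls as deposited but without a measurable change. The weakest of the 3 HSPB7 probe sets overlapped between the groups. HSPB1, also called HSP27, was dimmer on every failing array, by 12.4-fold and 4.22-fold on failing 1a and 1b but only 1.16-fold on failing 2a. CRYAB, HSPB6 and HSPB8 overlapped between the groups at their brightest probe set, and HSPB3 was too dim to be tested. No member passed the threshold in limma with Benjamini-Hochberg adjustment over all 1449 genes tested, where the lowest adjusted p in the family was 0.418. That threshold was passed by 0.069% of all genes in the higher and 0% in the lower direction, and the 0 lower calls stand beside 52 genes lower at an unadjusted p under 0.05.

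At an unadjusted p under 0.05, 2 of the 6 tested members were higher and 0 lower, against 6.9% of all genes higher and 3.59% lower. Separation of the groups upward was seen in 2 of 6 members (33.3%) and in 19.5% of all genes, and downward in 1 of 6 (16.7%) and in 11.8% of all genes. With so few members these shares are a description only. The median log2 fold change was 0.32 over the 6 members and 0.15 over all genes. Of the 6 members 4 had a log2 fold change above 0 and 2 below, against 863 and 586 of all 1449 genes. At the level of probe sets, 11 of the 14 were tested, of which 8 had a log2 fold change above 0 and 3 below. Upward separation was seen in 4 (36.4%, against 18.2% of all 2301 tested probe sets) and downward in 1 (9.09%, against 11.5%). Among the 4 were 2 HSPB7 probe sets from 1 source sequence. In the fit over probe sets 0 of the 11 passed the adjusted threshold (0.0869% of all probe sets higher and 0% lower). There were 3 higher and 0 lower at an unadjusted p under 0.05 in limma, against 6.13% and 3.35% of all probe sets.

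**Figure D1:**
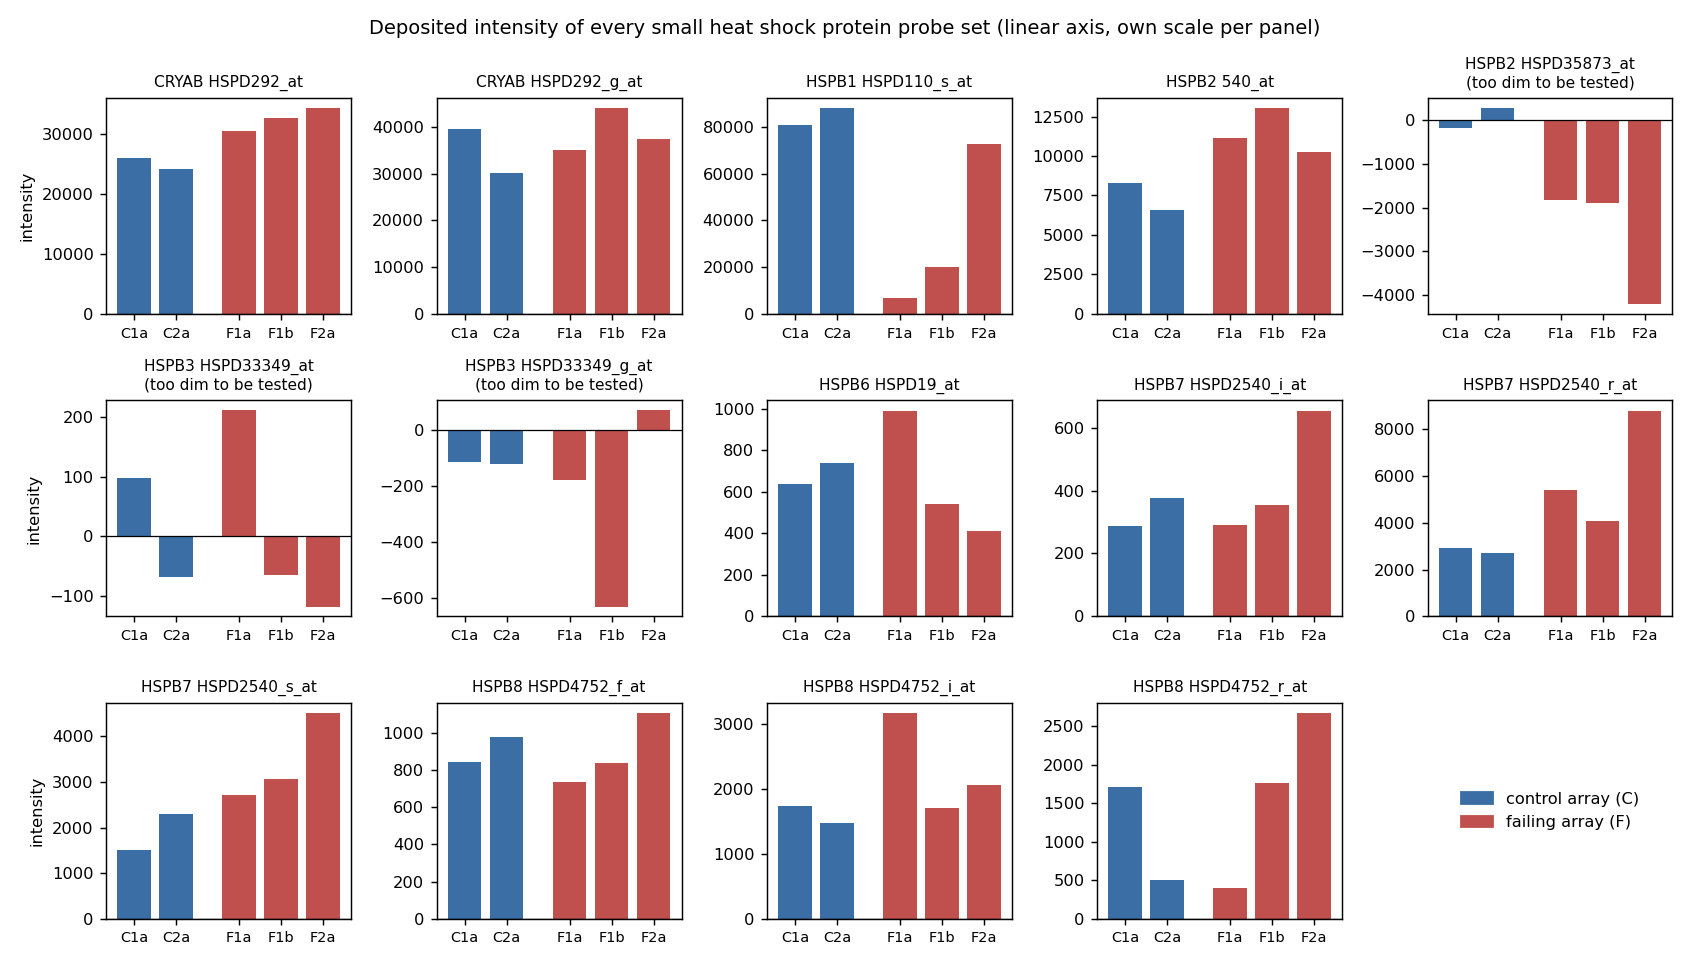
Deposited intensity (linear axis with its own scale in each panel) of the 14 small heat shock protein probe sets on the 2 control arrays (C, blue) and 3 failing arrays (F, red), 1 bar per array. HSPB1 had 80983 and 88049 on the control arrays, 6796 on failing 1a and 72821 on failing 2a, while HSPB2 540_at and 2 of the 3 HSPB7 probe sets were higher on all failing arrays.

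HSPB1 guards actin filaments and is a target of the p38 kinase pathway. Its single probe set, HSPD110_s_at, had intensities of 80983 on control 1a and 88049 on control 2a. On the failing arrays it had 6796 on 1a, 19989 on 1b and 72821 on 2a. The control arrays were close together, failing 1a and 1b were far below them, and failing 2a was only just below. The mean was 84516 ± 4997 (SD, n = 2) in control and 33202 ± 34939 (SD, n = 3) in failing myocardium, so the SD of the failing arrays exceeded their mean. The log2 fold change was −1.98 ± 0.95 (SE), with a 95% interval from −4.35 to 0.40 and an adjusted p of 0.532 in limma. Without failing 2a it was −2.86 ± 0.54 (adjusted p = 0.123) and without failing 1a −1.15 ± 0.62 (adjusted p = 0.671), so both arrays weighed on the value. After quantile normalization the value was −1.63 and the groups overlapped.

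The spread of HSPB1 among the failing arrays was wide even for this data set. Its highest and lowest failing values differed by 3.42 on the log2 scale (10.7-fold), a range exceeded by 39 of the 1222 tested genes that were above the floor on all arrays and set against a median range of 0.92. Between failing 1a and 1b alone it differed by 1.56, against a median of 0.27, with 68 genes differing more. Between the control arrays it differed by 0.12, and 968 genes differed more. Bright probe sets in general were somewhat lower on the failing arrays, and the 50 brightest other genes, a set chosen after these values were seen, had medians of −0.36, −0.15 and −0.35 relative to the control mean on failing 1a, 1b and 2a. HSPB1 stood at −3.64, −2.08 and −0.21 on the same arrays. On failing 1a and on 1b 0 of those 50 genes lay lower than HSPB1, and on failing 2a 28 did. The ending _s_at marks a probe set whose probes can match more than 1 transcript, and its value covers all of them.

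CRYAB is the alphaB-crystallin that chaperones desmin and titin in heart muscle. Its probe sets HSPD292_at and HSPD292_g_at were designed from the same source sequence and are not independent. HSPD292_at had 25938 and 24214 on control 1a and 2a, and 30409, 32611 and 34270 on failing 1a, 1b and 2a. All failing values exceeded both control values, by 1.29-fold on average (log2 fold change 0.37 ± 0.14 SE, adjusted p = 0.519 over all tested probe sets in limma). HSPD292_g_at, the brighter of the pair, had 39661 and 30096 on the control arrays, against 35175, 44037 and 37545 on the failing arrays. Here control 1a lay above failing 1a and 2a, and the groups overlapped (log2 fold change 0.17 ± 0.20 SE, 95% interval −0.33 to 0.66, adjusted p = 0.807 in limma). The difference between the probe sets in their change was 0.20 (two-sided exact permutation p = 0.4). Both probe sets were sensitive to the scaling of the arrays. HSPD292_g_at had 0.52 after quantile normalization and −0.037 after scaling to the 75th percentile. HSPD292_at had 0.62 and 0.17, and after scaling to the 75th percentile its groups overlapped too.

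HSPB6, also called HSP20, is a phosphoprotein of heart and smooth muscle that responds to cyclic nucleotide signaling. Its single probe set, HSPD19_at, had 636.5 and 739.7 on control 1a and 2a and 991.9, 540.9 and 413.6 on failing 1a, 1b and 2a. Failing 1a lay above both control arrays and failing 1b and 2a below both, so the failing arrays surrounded the control arrays. The log2 fold change was −0.18 ± 0.56 (SE, adjusted p = 0.928 in limma), with a 95% interval from −1.58 to 1.22 that allows a change of either sign. Without failing 2a its sign turned to 0.094.

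HSPB2, first described as a binding protein of the myotonic dystrophy kinase DMPK, had a bright and a dim probe set, designed from different source sequences. The bright probe set, 540_at, had 8297 and 6575 on control 1a and 2a and 11135, 13026 and 10279 on failing 1a, 1b and 2a. All failing arrays lay above both control arrays, by 1.51-fold, 1.76-fold and 1.39-fold over the control mean, and they differed among themselves by 0.34 on the log2 scale, against a median range of 0.92 over genes. The log2 fold change was 0.63 ± 0.20 (SE), with a 95% interval from 0.12 to 1.14, an unadjusted p of 0.0242 and an adjusted p of 0.418 in limma. It ranged from 0.46 to 0.80 over the fits that leave out 1 array. After scaling to the 75th percentile it was 0.43 and the groups overlapped.

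The dim HSPB2 probe set, HSPD35873_at, had −188.8 and 285.7 on control 1a and 2a and −1819, −1904 and −4209 on failing 1a, 1b and 2a. All failing values lay below both control values, opposite to 540_at. Values below 0 have no logarithm, so no fold is given. HSPD35873_at lay below the floor on 4 arrays and was not tested, so its order of arrays is not a measured change. No common direction is therefore shown by the probe sets of HSPB2, and the result for this gene rests on 540_at. That either probe set reads canine HSPB2 is taken from the platform annotation and was not checked here against sequence, so every HSPB2 value holds only as far as that annotation does.

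HSPB3, the partner of HSPB2 in muscle, was at or near background at both probe sets. HSPD33349_at had 98.4 and −67.6 on the control arrays, against 211.9, −64.1 and −117.8 on failing 1a, 1b and 2a. HSPD33349_g_at had −112.8 and −119.8 on the control arrays, against −175.9, −629.1 and 72.0 on the failing arrays. Of these 10 values 7 lay below 0, and no change was measurable. The annotation names human genes and the RNA was canine, so a dim reading need not mean few transcripts.

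HSPB7 is a cardiovascular member that is needed for orderly thin filaments in the developing heart. All 3 of its probe sets were designed from the same source sequence. The ending of HSPD2540_s_at, like that of the HSPB1 probe set, marks probes that can match more than 1 transcript. The endings of the other HSPB7 probe sets were not examined here, and HSPD2540_r_at is not shown to be more specific. The brightest, HSPD2540_r_at, had 2943 and 2709 on control 1a and 2a and 5382, 4097 and 8794 on failing 1a, 1b and 2a. HSPD2540_s_at had 1497 and 2307 on the control arrays, against 2717, 3053 and 4507 on the failing arrays. At both probe sets every failing array lay above both control arrays and failing 2a was the highest. The weakest, HSPD2540_i_at, had 286.2 and 374.9 on the control arrays, against 289.7, 354.5 and 653.9 on the failing arrays, and only failing 2a exceeded the controls.

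The log2 fold change of HSPB7 was 1.04 ± 0.36 (SE) at HSPD2540_r_at, with a 95% interval from 0.14 to 1.93, an unadjusted p of 0.0305 and an adjusted p of 0.438 in limma. At HSPD2540_s_at it was 0.85 ± 0.35 (0.54 without control 1a) and at HSPD2540_i_at 0.31 ± 0.71, with adjusted p of 0.522 and 0.907 over all tested probe sets. The difference between the brightest and the weakest was 0.72 (two-sided exact permutation p = 0.2, the smallest possible). Failing 2a, the array that stood apart, raised the value: at HSPD2540_r_at it lay 3.11-fold above the control mean, failing 1a 1.91-fold and failing 1b 1.45-fold. Without failing 2a the log2 fold change of HSPD2540_r_at was 0.73 ± 0.20 (adjusted p = 0.193), that of HSPD2540_s_at 0.63 and that of HSPD2540_i_at −0.032. At the r and s probe sets the groups stayed apart after quantile normalization (0.92 and 0.72) and after scaling to the 75th percentile (0.83 and 0.64).

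HSPB8, also called HSP22, had 3 probe sets from 1 source sequence. The brightest, HSPD4752_i_at, had 1734 and 1468 on control 1a and 2a and 3166, 1703 and 2060 on failing 1a, 1b and 2a. Failing 1a and 2a exceeded both controls and failing 1b did not (log2 fold change 0.48 ± 0.36 SE, 95% interval −0.40 to 1.37, adjusted p = 0.705 in limma). HSPD4752_f_at had 844.6 and 978.1 on the control arrays, against 733.5, 838.0 and 1105 on the failing arrays, which gave a log2 fold change of −0.048 ± 0.41 (SE). HSPD4752_r_at had 1719 and 500.1 on the control arrays, against 404.5, 1765 and 2672 on the failing arrays, so its control arrays alone differed by 1.78 on the log2 scale. Its log2 difference of 0.42 turned to −0.47 without control 2a and −0.13 without failing 2a. At HSPD4752_i_at the value was 0.23 without failing 1a. On failing 1a HSPD4752_i_at was at its highest of the 5 arrays while the other probe sets were at their lowest. BAG3, the partner of HSPB8, was not analysed here.

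**Figure D2:**
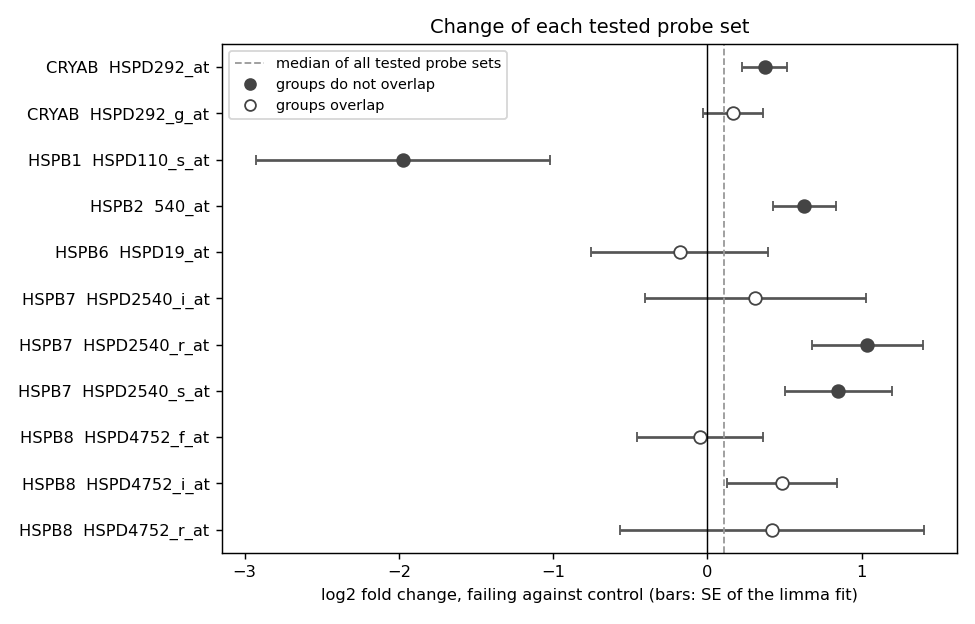
Log2 fold change of failing against control myocardium for the 11 tested probe sets, with the SE of the limma fit over all 2301 tested probe sets as bars. Filled points are probe sets whose control and failing arrays did not overlap, and the dashed line is the median of all tested probe sets (0.11). HSPB1 stands at −1.98 with the widest bar save that of 1 HSPB8 probe set, and HSPB7 has the highest value, 1.04.

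Whether 1 member changed more than another was asked of every pair, although 2 against 3 arrays cannot reach a p under 0.2. Of 15 pairs of the 6 tested genes, compared by the within-array difference of their log2 intensities, 8 reached the smallest two-sided exact permutation p of 0.2, and every adjusted p over the 15 pairs was at least 0.375. The change of HSPB1 minus that of HSPB7 was −3.01, the difference of largest size. HSPB1 minus HSPB2 (−2.60), HSPB1 minus HSPB8 (−2.46) and CRYAB minus HSPB1 (2.14) also reached that smallest p, and HSPB1 minus HSPB6 did not (−1.80, exact permutation p = 0.6). For the neighbours on the chromosome, CRYAB minus HSPB2 was −0.46 (exact permutation p = 0.2), and HSPB2 minus HSPB7 was −0.41 (exact permutation p = 0.6). After quantile normalization 3 of the 15 pairs reached the smallest exact permutation p.

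**Figure D3:**
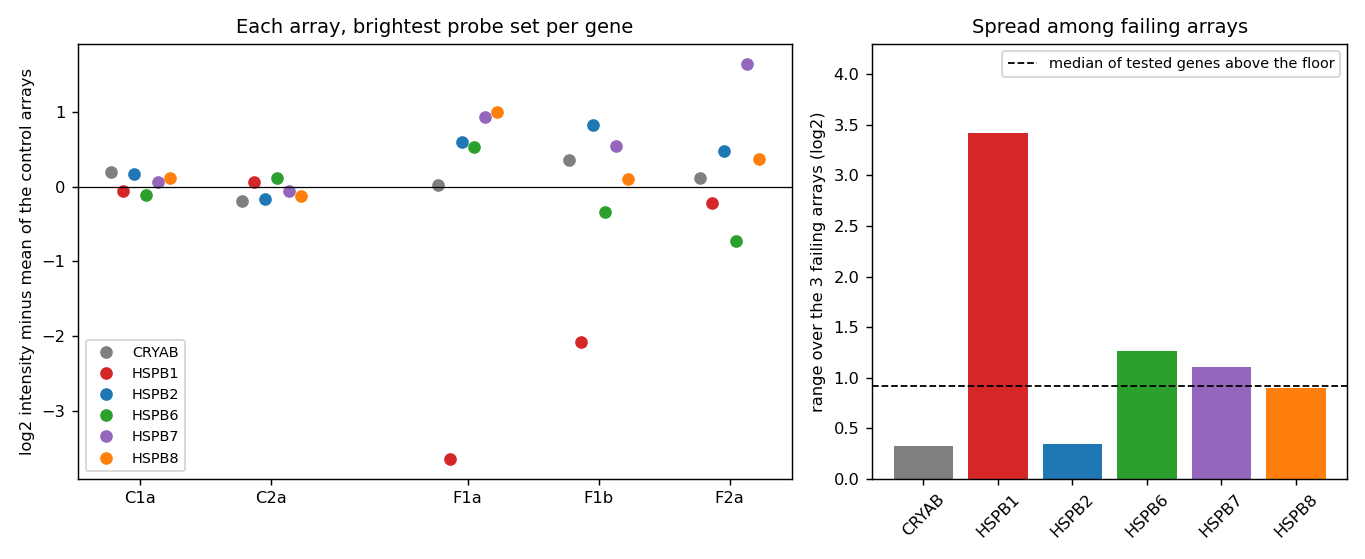
Left, log2 intensity of the brightest probe set of each tested gene on every array, minus the mean of the control arrays (C, control; F, failing). Right, range of log2 intensity over the 3 failing arrays, with the median of 1222 tested genes above the floor as a dashed line (0.92). HSPB1 is lowest on F1a and F1b and near the control level on F2a, and HSPB2 and CRYAB have the smallest ranges of the family, 0.34 and 0.32.

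The chaperones, co-chaperones, heat shock factors and kinases that act with the small heat shock proteins were on the array for 29 of 49 listed genes, and 14 were tested. Of these, 10 had a log2 fold change above 0 and 4 below, against 863 and 586 of all 1449 genes. TRAP1, 1 of the 10, had both controls below 0 and passed the brightness filter only through its failing arrays. The median of the 14 was 0.29, against 0.15 over all genes, and 0 passed the adjusted threshold (1 higher at an unadjusted p under 0.05). The failing arrays were all above control for 5 of them (35.7%, against 19.5% of all genes) and all below for 0. HSPD1, the mitochondrial chaperonin HSP60, had 1914 and 1004 on the control arrays, against 2387, 3079 and 2965 on the failing arrays at its tested probe set (log2 fold change 1.01 ± 0.36 SE, adjusted p = 0.442 in limma). Its other probe set went from 1100 and 1264 to values below 0 on all failing arrays, the opposite direction. DNAJA1, an HSP40 co-chaperone of HSP70, had 651.8 and 344.4 on the control arrays, against 997.1, 977.1 and 938.9 on the failing arrays, which gave a log2 fold change of 1.03 ± 0.47 (adjusted p = 0.528 in limma). Control 2a was the lower control for both, and without it HSPD1 had 0.55 and DNAJA1 0.57.

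HSF1, the transcription factor that induces heat shock genes, had 189.1 and 382.4 on the control, against 86.1, 351.3 and 1375 on the failing arrays, with failing 2a high and failing 1a low (log2 fold change 0.37 ± 1.31 SE, adjusted p = 0.945 in limma). Its direction turned after quantile normalization (−0.0037) and without control 1a or failing 2a. The p38 gamma kinase gene MAPK12 had −69.5 on control 1a, 2252 on control 2a and 3979, 3856 and 3754 on the failing arrays. Its 2 other probe sets lay below 0 on all arrays. Without control 2a its adjusted p was 0.0281, in a fit whose only control value lay below the floor, so no fold is given. The mitochondrial HSP90 gene TRAP1 had −8303 and −6968 on the control arrays, against 8173, 2167 and −3507 on the failing arrays at its tested probe set, and no fold is given. Its pass of the brightness filter rested on failing 1a and 1b, and of its 3 probe sets only 1 was tested. The constitutive HSP70 gene HSPA8 and the HSP40 gene DNAJB1 lay below 0 on every array. As for HSPB3, such readings of canine RNA need not mean few transcripts. DMPK had −340.0 and 245.7 on the control, against 33.4, 412.5 and −70.1 on the failing arrays and was not tested, and MAPKAPK2, the kinase of HSPB1, was not analysed here.

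The listed clients of the family are filament and sarcomere proteins, of which 14 of 15 on the array were tested. Their median log2 fold change was 0.36, the failing arrays were all above control for 3 and all below for 2 (21.4% and 14.3%, against 19.5% and 11.8% of all genes), and 0 passed the adjusted threshold (3 higher and 1 lower at an unadjusted p under 0.05). Desmin, DES, the intermediate filament that CRYAB chaperones, had 48719 and 25874 on the control, against 56032, 81232 and 60345 on the failing arrays. All failing arrays lay above both controls, and the control arrays were themselves far apart (log2 fold change 0.87 ± 0.32 SE, adjusted p = 0.454 in limma). It was 0.42 without control 2a and 1.33 without control 1a. ACTN2, the Z-disc actinin, had 1.81 ± 0.28 (adjusted p = 0.173 in limma). Its adjusted p was 0.0435 without failing 2a and 0.103 to 0.648 under the other alternatives. Skeletal alpha-actin, ACTA1, had 0.78 ± 0.30 (adjusted p = 0.457), and 0.44 without control 1a. Titin, TTN, had 12913 and 15429 on the control, against 11370, 9333 and 7246 on the failing arrays at its brightest probe set (−0.62 ± 0.25, adjusted p = 0.463), and the other 3 of its 4 tested probe sets had a log2 difference above 0. Filamin C, FLNC, was not analysed here.

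**Figure D4:**
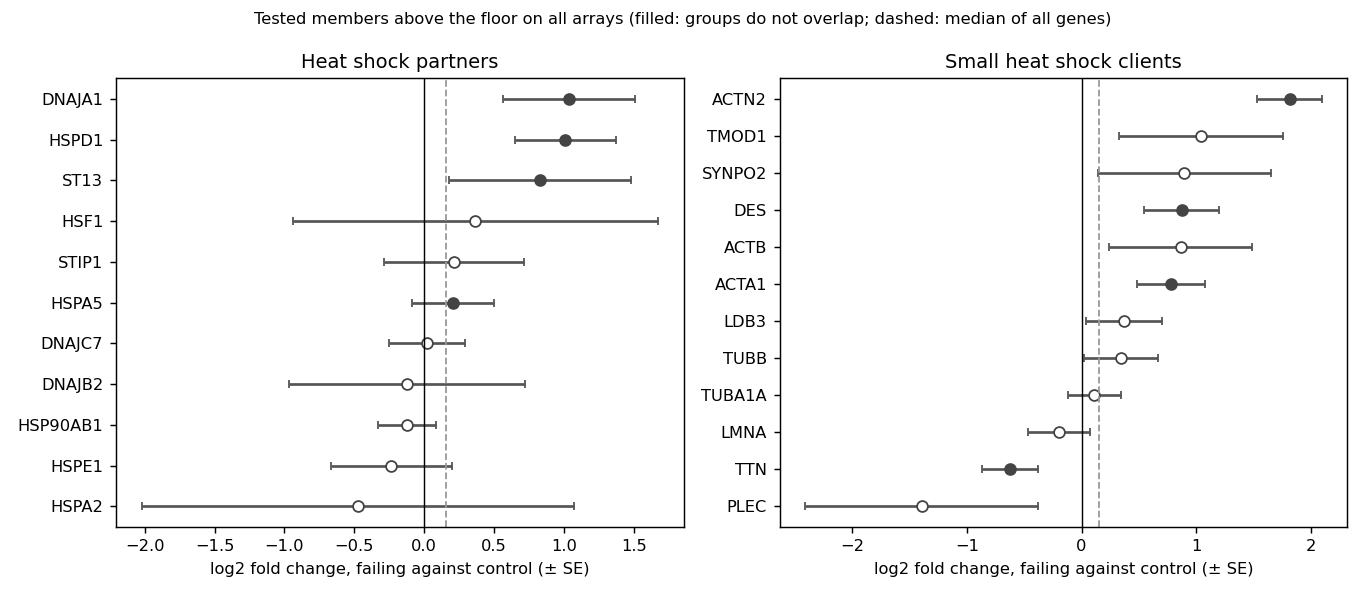
Log2 fold change of failing against control myocardium, with SE, for tested chaperone partners (left) and clients (right) that were above the floor on all arrays. Filled points are genes whose groups did not overlap, and the dashed line is the median of all 1449 genes (0.15). DNAJA1 and HSPD1 lead the partners at 1.03 and 1.01, and ACTN2 leads the clients at 1.81.

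Several family members are also expressed in the vessel wall and in skeletal muscle, so markers of other cells are given beside them. In bulk tissue, fewer cells of a type and less RNA per cell cannot be told apart. Counts of markers above 0, here and below, stand beside 863 of all 1449 genes above 0. Heart muscle markers had a median log2 fold change of −0.25 over 14 genes, with 2 genes separated upward (14.3%, against 19.5% of all genes) and 5 downward (35.7%, against 11.8%). MYH6, alpha myosin heavy chain, had −0.54 ± 0.18 (SE, adjusted p = 0.418 in limma) and MYL3, a ventricular myosin light chain, −0.55 ± 0.19 (adjusted p = 0.437), and after quantile normalization they had −0.29 and −0.26. Summed intensities of 8 endothelial markers were 5710 to 6757 on the control, against 7729 to 16759 on the failing arrays, highest on failing 2a. Sums of skeletal muscle, leukocyte, erythroid and adipocyte markers were highest on that array too, and those of heart muscle, smooth muscle and fibroblast markers were not. The endothelial median log2 fold change was 0.88, with all 8 above 0 (AQP1 1.72 and CDH5 2.40, or 1.01 and 1.40 without control 1a). On the control arrays CDH5 had 34.5 and 137.7 and EMCN 109.6 and 125.0, and both passed the brightness filter only through their failing arrays. With a floor of 100 CDH5 had 1.64, and its other probe set lay below 0 on all arrays but control 2a. TEK had 24.4 on control 1a and 478.7 on control 2a. Its mean intensity was 251.5 in control and 235.2 in failing myocardium, the opposite direction to its log2 fold change.

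The 4 smooth muscle and pericyte markers tested had a median of 0.61 and pointed both ways, with TAGLN at −1.01 ± 0.34 (SE) and the shared muscle gene DES at 0.87, and CNN1 and PDGFRB lay below the floor on all arrays. Their summed intensities, 31521 to 55141 on the control, against 62246 to 87049 on the failing arrays, are mostly DES. The 12 skeletal muscle markers had a median of 0.30, with 8 above 0 and 4 below, and 3 separated upward and 1 downward (25% and 8.33%, against 19.5% and 11.8% of all genes). RYR1 had 1.21 (0.66 without failing 2a) and TNNI2 1.69 (0.84 without control 2a and 2.54 without control 1a). The list had sums of 8622 to 9933 against 10999 to 15115, and MYOD1 and MYF6 lay below the floor on all arrays. The 10 fibroblast markers had a median of 0.37, with 8 above 0 and 2 below (COL3A1 2.36, COL1A2 1.28), and sums of 12659 to 14916 against 16240 to 18575. Hemoglobin genes HBB (0.94, and −0.69 at its other tested probe set) and HBA1 (−0.048), the leukocyte gene TYROBP (0.22) and the adipocyte genes PLIN4 (0.48) and PLIN1 (−0.34) had sums that overlapped between the groups. Of 6 leukocyte markers on the array CD163, ITGAM and FCER1G lay below the floor on all arrays. No marker passed the adjusted threshold, and the part of any of these lists in the changes of HSPB2, HSPB7 or HSPB1 was not tested.

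Genes with the most similar profile over the 5 arrays were found by the root mean square difference of log2 intensities after each gene's own mean was subtracted, among the 1448 other genes. The genes closest to HSPB2 were KPNA3, ATF4, CAV3 and NRAP, at 0.10 to 0.11, against a median of 0.63 over all genes. CAV3 is the caveolin of muscle cells and NRAP an anchoring protein of myofibril assembly, and ATF4 is a transcription factor of the integrated stress response. The genes closest to HSPB7 were LMOD1, N4BP2L1, IGF2 and SLC25A51, at 0.088 to 0.11 (median 0.74). LMOD1, a leiomodin of smooth muscle, had 1824 and 1560 on the control, against 2781, 2439 and 5139 on the failing arrays. Its peak on failing 2a follows from its choice by likeness to HSPB7 and adds nothing to it.

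The genes closest to HSPB1 were RPS14, CFP, NEB and CNPPD1, at 0.46 to 0.56 against a median of 1.57. This measure grows with the spread of the member itself, which was widest for HSPB1, so it does not rank likeness between members. RPS14, a ribosomal protein gene chosen by this likeness, had 43878 and 47352 on the control, against 7207, 20399 and 39879 on the failing arrays. The order of its arrays was that of HSPB1, as such a choice favours. Nebulin, NEB, a thin filament ruler of skeletal muscle, had 4957 and 3661 on the control, against 740.8, 1067 and 2750 on the failing arrays. The genes closest to CRYAB were EIF4A2, LDHB, BLOC1S1 and CBX1 (0.079 to 0.094), those closest to HSPB6 were MFAP4, MAGEA5P, RAC1 and COPS3 (0.12 to 0.16), and those closest to HSPB8 were POLR2J, PRDX6, DOCK1 and SPARC (0.14 to 0.23). With 5 arrays and so many genes, near matches are found for most profiles, and these names are a description of the arrays.

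The scale of the arrays moved the median of all genes from 0.15 with the deposited scale to −0.0016 after quantile normalization and −0.052 after scaling to the 75th percentile. Relative to that median HSPB7 had 0.88, 0.93 and 0.88 at HSPD2540_r_at under the 3 scales, HSPB2 had 0.47, 0.60 and 0.48 at 540_at, and HSPB1 had −2.13, −1.63 and −2.13. CRYAB at HSPD292_g_at had 0.010, 0.53 and 0.015. Among all 1449 genes, 86.3% had a lower log2 fold change than HSPB7, 74.6% a lower one than HSPB2 and 3.93% a lower one than HSPB1.

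**Figure D5:**
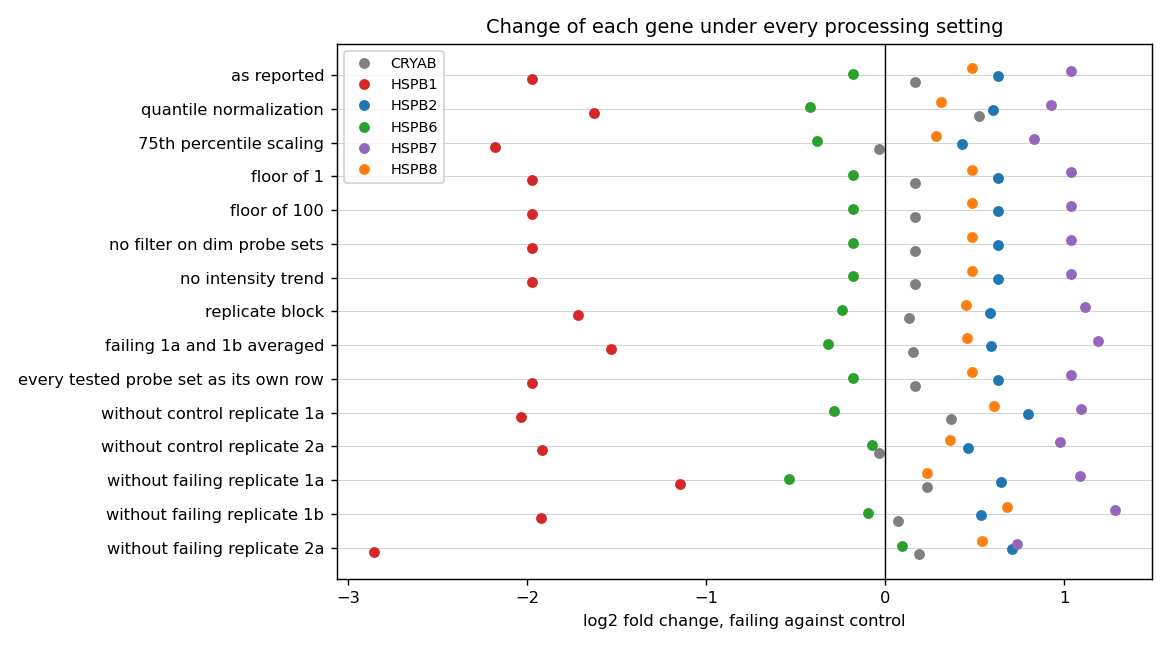
Log2 fold change of the 6 tested genes (colours) as reported and under each of 14 other processing settings (rows), each from its own limma fit. HSPB7 ranges from 0.73 to 1.28, HSPB2 from 0.43 to 0.80 and HSPB1 from −2.86 to −1.15, while CRYAB and HSPB6 cross 0.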

How the data were processed

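Expression was measured in 5 arrays of canine myocardium, grouped by title into 2 control and 3 failing. The authors deposited 1 linear intensity per probe set and array. Software, build and normalization are not given in the sources used here. Of 4653 probe sets, 52 array controls were left out. A single gene symbol was given for 3724 of the rest, several for 72 and none for 805. Columns of other samples numbered 0. The annotation is to human genes. No coordinates or sequences are given.

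Values under 20 were set to 20 before log2 was taken. Genes were represented by their brightest tested probe set (1449 genes, 2301 probe sets) and compared in R 4.3.3 with limma 3.58.1 (eBayes with intensity trend, two-sided, Benjamini-Hochberg, threshold 0.05), first per gene and then per probe set. The test was checked on 20 simulated sets of 1449 genes with normal noise, 200 of them changed. Over all genes it recovered 10.9% of changes of log2 size 1, 38.4% of size 2, 57.2% of size 3 and 70.3% of size 4. Of the calls, 3.91% were false. A member that was not called is therefore not shown to be unchanged. Folds are given only where no array lay below the floor. A two-sided exact permutation p is double the smaller tail over 10 splits. The number of arrays limits precision.

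Named genes were all family probe sets, 9 partners or clients whatever their values, up to 4 genes per partner or client list and 2 per marker list with the largest moderated statistic, and the 4 nearest profiles per member. Members and lists were chosen with earlier results of these data known. Alternatives changed the scaling, floor, filter, trend, replicate block, repeat arrays, rows of the fit and arrays left out.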

Additional observations from a re-analysis of the deposited data

How the results depend on the processing

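At their brightest probe set, HSPB1, HSPB2, HSPB7 and HSPB8 kept their direction in all 14 alternatives, none passing the adjusted threshold. Of their other tested probe sets, for which the replicate block was not run, HSPD4752_r_at of HSPB8 turned to −0.47 without control 2a and −0.13 without failing 2a, HSPD4752_f_at (−0.048) turned to 0.035 with failing 1a and 1b averaged, 0.058 without control 2a and 0.083 without failing 1a, and HSPD2540_i_at of HSPB7 to −0.032 without failing 2a. CRYAB turned to −0.037 after scaling to the 75th percentile and to −0.034 without control 2a (range over arrays left out −0.034 to 0.36), and HSPB6 to 0.094 without failing 2a (−0.54 to 0.094). Over arrays left out, HSPB1 ranged from −2.86 to −1.15, HSPB2 from 0.46 to 0.80, HSPB7 from 0.73 to 1.28 and HSPB8 from 0.23 to 0.68. Genes called numbered 1 as reported, 2 after scaling to the 75th percentile, 0 with a floor of 1, 5 without the filter, 3 without the trend, 0 with failing 1a and 1b averaged, 2 with every probe set as a row, and 0 to 13 over arrays left out. Where 0 were called, limma gave 140 (floor of 1), 94 (averaged), 106 (without failing 1a) and 93 (without failing 1b) genes at an unadjusted p under 0.05. Genes higher made up 65.8% of those at an unadjusted p under 0.05 as reported, 59% after quantile normalization and 45.5% after scaling to the 75th percentile. Pairs of members at the smallest exact p numbered 8, and 3 after quantile normalization. Among 23 named partners and markers, HSF1 turned to −0.0037 after quantile normalization, −0.14 without control 1a and −0.63 without failing 2a (range over arrays left out −0.63 to 1.37). HBA1 turned to 0.027 with failing 1a and 1b averaged, 0.56 without control 1a and 0.082 without failing 1a (−0.65 to 0.56).

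Control and failing arrays share the numbers 1 and 2 in their titles, which the labels do not tie to a shared animal or day. With the number as a replicate block 1 gene was called, as without it, and HSPB1, HSPB2, HSPB6, HSPB7, HSPB8 and CRYAB had −1.72, 0.58, −0.24, 1.11, 0.45 and 0.13, with 0 called. Genes at an unadjusted p under 0.05 in limma numbered 226 with the block and 152 without it. Deviations from the group means of same-numbered control and failing arrays correlated across genes at −0.025 to 0.041. With 2 controls their deviations mirror each other (correlation −1), so this check cannot decide whether the numbers mark pairs. The labels give no tie, and the numbers were not used as pairs in the reported fit. The fits that leave out a control array rest on 1 control, assumed to vary as the failing arrays do. With 37% of values below the floor on a typical array, dim members such as HSPB3 cannot be measured here.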
